A study of Homo sapiens with 6 samples.

Results

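The integrins that bind fibronectin and vitronectin were followed in CL1-0 and CL1-5, human lung adenocarcinoma cell lines that both come from the parental line CL1. The family was taken as 9 subunit genes, ITGA4, ITGA5, ITGA8, ITGA9, ITGAV, ITGB3, ITGB5, ITGB6 and ITGB8, through every probe set of the array whose annotation names such a gene and no other. These are 9 of 19775 named genes on the array, read by 30 of its 54675 probe sets, and 8 of the 9 genes had a probe set. All 4 probe sets that name ITGB6 also name another gene, so ITGB6 has no value here. CL1-0 is labelled poorly invasive and CL1-5 highly invasive, and both were grown in RPMI medium with fetal bovine serum and antibiotics, without further treatment. Each line gave 3 arrays, called biological repeats in the titles. Nothing further is said of how the repeats were grown, so p-values measure the spread between these arrays. Each line is a single cultured line, so a difference between the lines is one between these cultures and not between classes of tumour.

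Integrins are cell-surface receptors made of an alpha and a beta subunit, and the pair decides which matrix protein is bound. The pairs alpha 5 beta 1, alpha 8 beta 1 and those of alpha v recognise the Arg-Gly-Asp sequence of fibronectin, vitronectin and related proteins, while alpha 4 and alpha 9, also partners of beta 1, bind other sites in fibronectin, VCAM1, tenascin C or osteopontin. Alpha v beta 6 and alpha v beta 8 also bind and activate latent TGF-beta, and on the cytoplasmic side talin and kindlin attach to the beta tail and link the receptor to actin.

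Signal is given in the deposited linear units, and "dim" stands for a signal no higher than the 40th percentile of the same array (19.5 to 20.3 units), taken in place of a background. Array medians lay between 30.2 and 30.9 units, and with 3 arrays for a line precision is limited by their number. Arrays of 1 line correlated at 0.989 to 0.996 and arrays of different lines at 0.856 to 0.866, taken over genes, which are not independent replicates. On the second principal component, with 4.42% of the variance, repeat 3 of both lines stood apart. In bulk RNA, fewer cells with a transcript and less of it per cell cannot be told apart. Of the 12 markers of lung adenocarcinoma and epithelium, 10 lay above the percentile on all CL1-0 arrays and 9 on all CL1-5 arrays. Their summed signal was 592 to 632 units in CL1-0 and 4862 to 5688 in CL1-5. KRT18 (46.5 and 4222 units on average in CL1-0 and CL1-5) and KRT8 (49.4 and 555) differed most, both by probe sets of the cross-hybridising kind. The lung lineage genes NKX2-1, NAPSA, SFTPB and SFTPC averaged 24.98 to 99.0 units, KRT19 and SFTPD were dim on every array, and EPCAM was at least 1.35-fold lower in CL1-5. Fibroblast markers summed to 194 to 205 units in CL1-0 and 179 to 186 in CL1-5 (8 genes, 4 above the percentile on all arrays of each line, LUM and PDGFRA dim on all), endothelial markers to 128 to 148 and 256 to 273 (6 genes, 2 and 3 above it on all arrays, CDH5 and KDR dim on all), and leukocyte and platelet markers to 167 to 185 and 181 to 202 (7 measured genes, 4 and 5 above it on all arrays, PTPRC and CD14 dim on all). PECAM1 (log2 fold change 1.11) and CLDN5 (1.59) made most of the endothelial difference. The part of these markers in the results was not tested.

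Of the 9 genes, 6 passed the filter and were tested. ITGA4, ITGA5 and ITGB3 were higher in CL1-5, ITGAV was lower, and ITGB5 and ITGA8 did not pass the test (limma, Benjamini-Hochberg over 14828 genes, adjusted p under 0.05). Over all genes tested 51.6% were called, 23.3% as higher and 28.3% as lower, so 4 calls among 6 genes are near the background. The lines did not overlap in 4 of the 6, beside 58.8% of all genes tested. Of the 30 probe sets 15 passed the filter, of which 11 were higher, 2 lower and 2 not called, against 46.9% called among all 28152 probe sets tested (21.2% as higher and 25.6% as lower). In 13 of the 15 the lines did not overlap, which holds for 55.6% of all probe sets tested. In 6 of the 15, namely all 4 of ITGA4 and 2 of ITGB3, every CL1-0 array was dim, so these passed the filter through CL1-5 alone and had to differ. Without CL1-5 repeat 1, 2 or 3 they fail the filter and the higher probe sets number 5, 4 and 4. Probe sets of 1 gene read the same RNA and are not replicates.

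**Figure D1:**
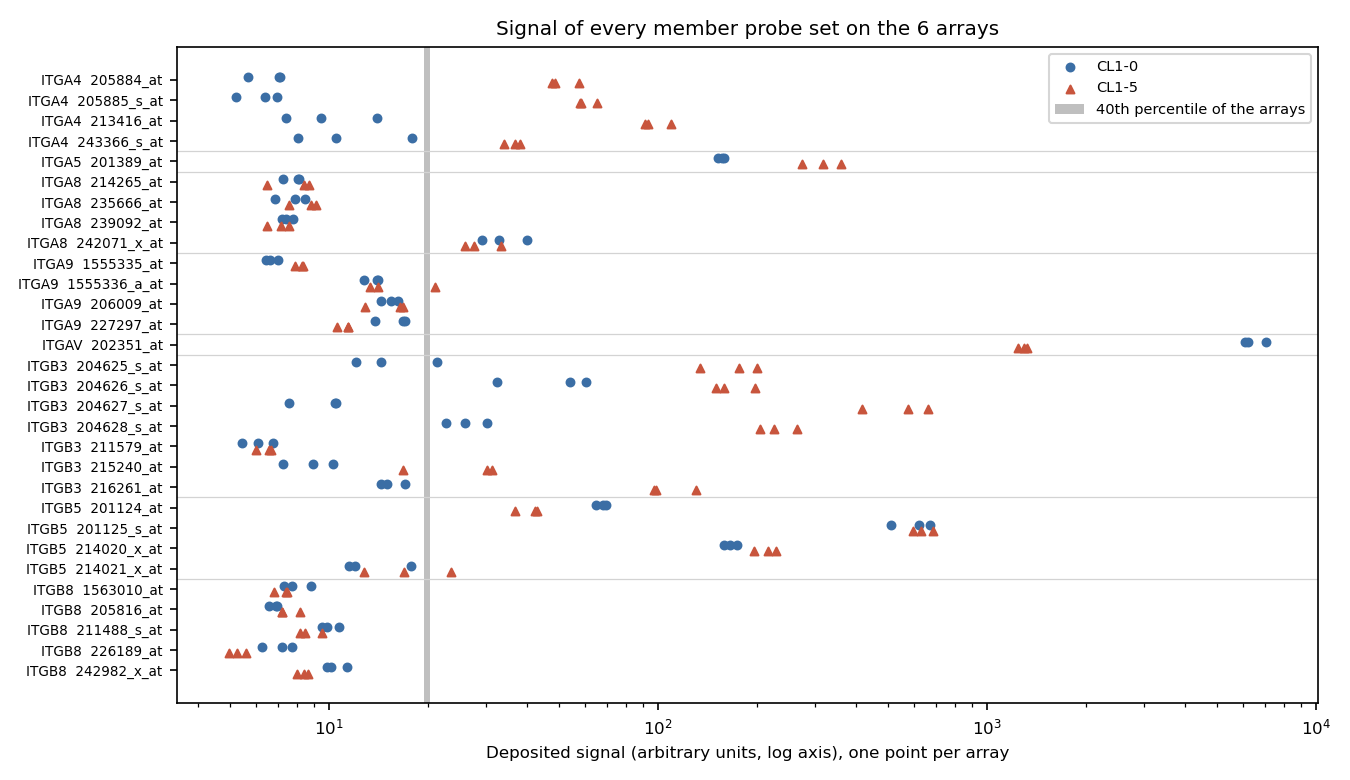
Deposited signal (arbitrary units, log axis) of all 30 probe sets on the 3 CL1-0 arrays (blue circles) and the 3 CL1-5 arrays (red triangles), with the 40th percentile of the arrays in grey. ITGAV lies at 6075 to 7060 units in CL1-0 and 1240 to 1326 in CL1-5. The ITGA4 probe sets, and 204627_s_at and 216261_at of ITGB3, lie left of the grey line in CL1-0 and right of it in CL1-5. All ITGB8 probe sets lie left of the line on every array.

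ITGAV encodes alpha v, the alpha subunit of the classical vitronectin receptors and the partner of beta 3, beta 5, beta 6 and beta 8. Its probe set, 202351_at, read 6075, 6198 and 7060 units on the CL1-0 arrays and 1240, 1326 and 1299 on the CL1-5 arrays. All CL1-5 arrays lay far under all CL1-0 arrays, and ITGAV was well above the percentile in both lines. The log2 fold change (CL1-5 relative to CL1-0, after 6.85 units were added to each signal) was -2.31 (SE 0.08, 95% interval -2.49 to -2.14, limma adjusted p = 3.3e-08, n = 3 arrays per line), or 4.97-fold lower. It was -2.25 with repeats 1 and 2 alone.

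ITGA5 encodes alpha 5, which pairs with beta 1 to form the classical fibronectin receptor. Its probe set, 201389_at, read 157, 153 and 159 units in CL1-0 and 274, 318 and 361 in CL1-5, so that the lowest CL1-5 array lay above the highest CL1-0 array. The CL1-0 arrays were close together and the CL1-5 arrays more spread, at 156 ± 3.03 and 318 ± 43.8 units (SD). The log2 fold change was 0.98 (SE 0.11, 95% interval 0.73 to 1.24, limma adjusted p = 9.5e-05), or 1.98-fold, and 0.90 with repeats 1 and 2 alone.

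ITGA4 encodes alpha 4, the receptor subunit for VCAM1 and the alternatively spliced connecting segment of fibronectin, best known from leukocytes. The probe set that represents it, 213416_at, read 14.1, 7.41 and 9.46 units in CL1-0 and 93.2, 91.7 and 109 in CL1-5. Probe set 205885_s_at read 5.24, 6.99 and 6.42 in CL1-0 and 58.0, 65.2 and 58.4 in CL1-5. Probe set 205884_at read 7.07, 7.12 and 5.68 against 47.6, 57.5 and 48.8. The weakest, 243366_s_at, read 10.5, 17.9 and 8.06 against 38.1, 34.1 and 36.7. In all 4 probe sets every CL1-0 array was dim and every CL1-5 array above the percentile, and signals in CL1-5 were moderate. ITGA4 was therefore higher in CL1-5 by a bound only, at least 3.90-fold by 213416_at, 2.51-fold by 205885_s_at, 2.16-fold by 205884_at and 1.61-fold by 243366_s_at (bright line against, on each dim array, the higher of the percentile and the signal). The fit for 213416_at gave a limma adjusted p of 9.6e-07, but the probe set passed the filter through CL1-5 alone, so this p adds nothing to the bound, and no exact fold is given for ITGA4. PTPRC, the pan-leukocyte marker, was dim on all arrays, at 9.91 ± 0.86 units (SD) in CL1-0 and 7.93 ± 0.71 in CL1-5. CD14 was dim on all arrays too, but CD3E, GP9, PF4 and GP1BA lay above the percentile on all. ITGB2 passed narrowly as higher in CL1-5 (log2 fold change 0.35, limma adjusted p = 0.039). It did not pass without CL1-0 repeat 2 or 3 or CL1-5 repeat 1 or 2. The part of leukocyte transcripts in the ITGA4 signal was not tested.

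ITGA8 and ITGA9, further partners of beta 1, were measured by 4 probe sets each. For ITGA8, known from mesenchyme and the developing kidney, 214265_at, 235666_at and 239092_at were dim on all 6 arrays, between 6.48 and 9.17 units. The 1 that passed, 242071_x_at, is of the cross-hybridising kind, so other transcripts may add to it, and read 40.2, 32.9 and 29.3 units in CL1-0 and 33.3, 27.6 and 26.0 in CL1-5, with the lines overlapping. Its log2 fold change was -0.19 (95% interval -0.48 to 0.10, limma adjusted p = 0.25), and array weights alone brought it past the threshold (adjusted p = 0.024). For ITGA9, a receptor subunit for tenascin C and osteopontin, signals ran from 6.44 to 21.0 units, and only 1 array of 1 probe set (1555336_a_at, CL1-5 repeat 1) exceeded the percentile. No direction is given for ITGA9. Without the filter 1555335_at would count as higher (log2 fold change 0.15) and 227297_at as lower (-0.33).

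ITGB3 encodes beta 3, which makes the vitronectin receptor with alpha v and the platelet fibrinogen receptor with ITGA2B. It was higher in CL1-5 in all 5 tested of its 7 probe sets, by very different amounts. Probe set 204627_s_at read 10.5, 10.5 and 7.57 units in CL1-0, dim on every array, and 663, 575 and 418 in CL1-5, at least 20.5-fold higher. Probe set 204628_s_at read 22.7, 30.3 and 26.0 against 264, 225 and 205 (log2 fold change 2.84, SE 0.14). Probe set 204625_s_at read 14.4, 12.1 and 21.4 against 176, 199.7 and 135 (2.96, SE 0.19). Only 1 of its CL1-0 arrays lay above the percentile, and its size moved with the constant. It was 2.40 with the 40th percentile as constant and 3.35 with a constant of 1. In 204627_s_at, 204628_s_at and 204625_s_at the lowest CL1-5 array lay several-fold above the highest CL1-0 array. Probe set 216261_at read 15.04, 17.0 and 14.5 against 97.6, 98.5 and 131, at least 4.28-fold higher. Probe set 204626_s_at, which represents the gene, read 32.4, 54.2 and 60.7 against 197, 159 and 150, and gave the smallest change, 1.68 (SE 0.20, limma adjusted p = 1.3e-04 over genes). Its CL1-0 arrays were the brightest of any ITGB3 probe set in that line. Of the untested pair, 215240_at was dim in CL1-0 and above the percentile on 2 CL1-5 arrays (at least 1.20-fold higher), and 211579_at was dim on all 6.

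The choice of probe set thus sets the size given for ITGB3. When CL1-0 repeat 1, 2 or 3 was left out, 204627_s_at became the brighter on average and took the gene's place, and for it only the bound holds. With the median of the probe sets, of which 2 were dim in CL1-0, the log2 fold change was 2.94. The 3 probe sets with a CL1-0 array above the percentile (204625_s_at, 204626_s_at and 204628_s_at) were called as higher in every alternative run. The CL1-0 to CL1-5 difference of 204626_s_at was 1.91 with repeats 1 and 2 alone.

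**Figure D2:**
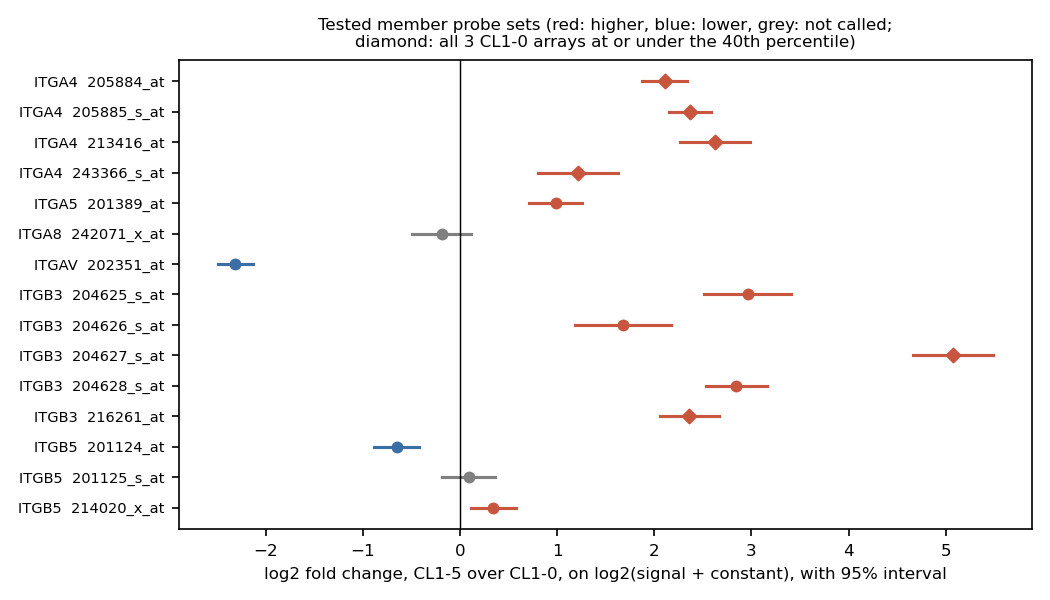
Log2 fold change (CL1-5 relative to CL1-0, on the log2 scale after the constant was added) with its 95% interval from limma for the 15 tested probe sets (n = 3 arrays per line). ITGAV lies at -2.31, ITGA5 at 0.98, the ITGB3 circles between 1.68 and 2.96, and the ITGB5 probe sets on both sides of 0. Diamonds mark probe sets dim on all CL1-0 arrays. There the fitted value and its interval depend on the constant and only a bound holds. The circle of 204625_s_at, with only 1 CL1-0 array above the percentile, depends on the constant as well.

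ITGB5 encodes beta 5, the other beta subunit of a vitronectin receptor with alpha v. Its probe sets did not give a common direction. The brightest, 201125_s_at, read 672, 619 and 512 units in CL1-0 and 684, 629 and 596 in CL1-5, with the lines overlapping. The log2 fold change was 0.09 (limma over genes, adjusted p = 0.56). The 95% interval of -0.17 to 0.35 leaves room for small changes in either direction. Probe set 201124_at read 69.8, 64.7 and 68.3 against 36.8, 42.2 and 43.1, all CL1-5 arrays under all CL1-0 arrays, and was lower (-0.65, SE 0.10, limma adjusted p = 0.0011 over probe sets). Probe set 214020_x_at, of the cross-hybridising kind, read 166, 159 and 174 against 196, 216 and 228 and was higher (0.34, SE 0.10, adjusted p = 0.022). Leaving out any of 4 arrays ended the call for 214020_x_at, with limma adjusted p-values of 0.056 and 0.082 for CL1-0 repeats 1 and 2 and 0.082 and 0.065 for CL1-5 repeats 2 and 3, at log2 fold changes of 0.30 to 0.34. Probe set 214021_x_at was dim on all arrays but CL1-5 repeat 3. With the median of the probe sets that passed the filter, ITGB5 passed as higher (0.34, limma adjusted p = 0.014). On every array this median was 214020_x_at itself, so it adds nothing to that cross-hybridising probe set. Since the probe sets differ, neither a change nor its direction can be given for ITGB5 as a gene.

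ITGB8 encodes beta 8, the alpha v partner in a receptor that binds and activates latent TGF-beta. All 5 of its probe sets were dim on every array, between 4.99 and 11.4 units. The lines did not overlap in 4 of them. CL1-0 was the higher in 226189_at (7.73, 6.28 and 7.21 units against 5.59, 5.29 and 4.99), 242982_x_at (10.2, 11.4 and 9.92 against 8.44, 8.63 and 8.003) and 211488_s_at, and CL1-5 in 205816_at. At such signals no fold and no direction is given for ITGB8. Without the filter 226189_at and 242982_x_at would count as lower (-0.20 and -0.19).

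Differences in change between subunits were set against the spread between arrays in 4 pairs, by an exact two-sided permutation test on the difference of log2 values within each array. The change of ITGA5 exceeded that of ITGAV by 3.30, and that of ITGB3 (204626_s_at) exceeded that of ITGB5 by 1.59 on the log2 scale. In both pairs the lines did not overlap, and each exact p was 0.1, the smallest that 3 against 3 arrays can give, also after adjustment over the 4 pairs. The permutation ran over all splits of the arrays and did not keep arrays of the same repeat number together. For the other two pairs, of ITGA4 with ITGA5 and with ITGAV, no size or test is given, since ITGA4 was dim in CL1-0. The ITGB3 value holds for 204626_s_at alone, as with the 40th percentile as constant 204627_s_at, dim in CL1-0, took its place.

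The genes whose log2 values, centred on their own means, lay closest to ITGAV over the 6 arrays were TOX-DT, PHF6 and SGTB, at root mean square distances of 0.05, 0.05 and 0.06. Their log2 fold changes were -2.31, -2.36 and -2.38. That these are close to ITGAV follows from the choice, since the distance includes the difference between the lines. The same measure is not given for ITGA4, whose probe sets were dim in CL1-0.

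ITGA5 and ITGAV, the alpha subunits measured well above the percentile in both lines, moved in opposite directions, and their promoter windows are shown for that reason. The windows, from RefSeq (GRCh38.p14), run from 180 bases before to 20 bases after the annotated start, 5′ to 3′ on the gene's strand, for ITGAV at the upstream of its annotated starts. Capitals mark TGANTCA, the letters bound by AP-1 factors.
ITGA5 (chr12:54419247-54419446, minus strand): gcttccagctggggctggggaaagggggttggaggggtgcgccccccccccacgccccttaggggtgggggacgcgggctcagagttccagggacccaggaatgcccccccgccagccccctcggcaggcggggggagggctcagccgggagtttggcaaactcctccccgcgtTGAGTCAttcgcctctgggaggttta
ITGAV (chr2:186589876-186590075, plus strand): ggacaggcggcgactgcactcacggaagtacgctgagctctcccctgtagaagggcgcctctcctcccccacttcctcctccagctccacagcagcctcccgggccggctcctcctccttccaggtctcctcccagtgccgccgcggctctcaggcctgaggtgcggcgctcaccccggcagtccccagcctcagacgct
The ITGA5 window holds 1 such match, at the start site, and the ITGAV window 0. TGANTCA on either strand is held by 5.48% of the 35116 RefSeq promoter windows of 200 bases. GGGCGG (the GC box, in 40.1% of windows) and CAGGTG (an E-box, in 14%), searched on both strands, were in neither window. Of the 9 genes 7 had such a window, all but ITGA9 and ITGB3, and of these ITGA5 alone held TGANTCA. These matches describe letters only, and no binding was measured.

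Beta 1, encoded by ITGB1, is the partner of alpha 4, alpha 5, alpha 8 and alpha 9 and can pair with alpha v. It fell in CL1-5 by all 3 of its bright probe sets. Probe set 211945_s_at, which represents it, read 7225, 7354 and 8423 units in CL1-0 and 5382, 5840 and 5463 in CL1-5 (log2 fold change -0.46, SE 0.08, limma adjusted p = 8.2e-04; -0.77 with the median of the probe sets). Probe set 1553530_a_at read 4303, 4251 and 3598 against 2568, 2662 and 1776 (-0.81), and 1553678_a_at read 4017, 3954 and 3665 against 2220, 2458 and 1965 (-0.81). No CL1-5 array reached a CL1-0 array in any of them, while the other 4 ITGB1 probe sets were dim throughout. ITGA2B, the platelet partner of beta 3, fell as well, from 123 ± 8.04 to 51.4 ± 5.10 units (SD; -1.15, SE 0.11, limma adjusted p = 2.4e-05). ITGB7, the lymphocyte partner of alpha 4, read 57.3 ± 4.87 and 60.02 ± 7.25 units (SD) and did not pass (0.06, adjusted p = 0.72).

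**Figure D3:**
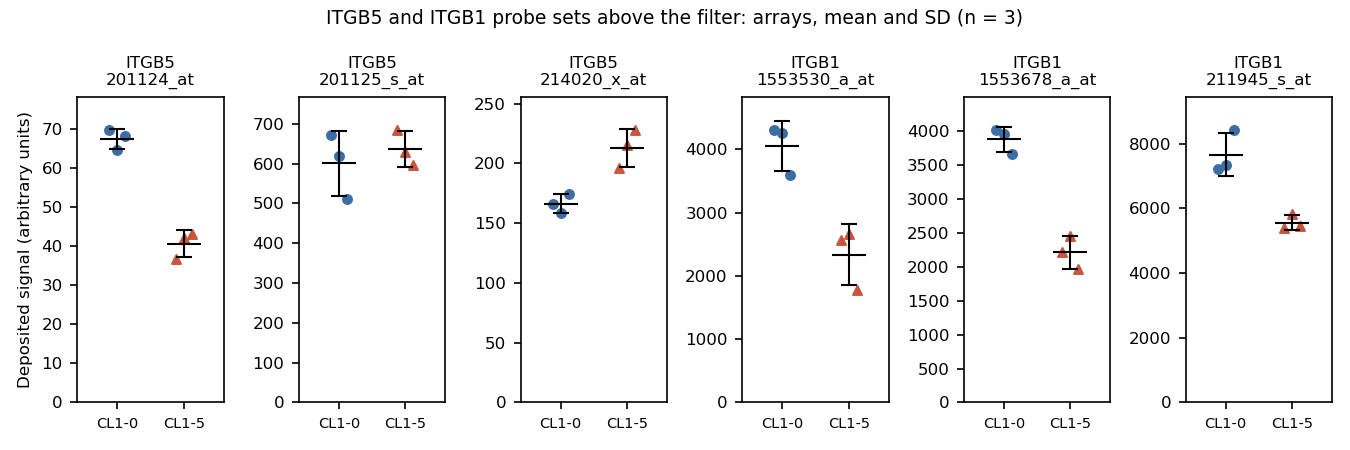
Deposited signal (arbitrary units, linear axes from 0) on each array, with mean and SD (n = 3 per line), of the probe sets of ITGB5 and ITGB1 that passed the filter. The ITGB5 panels show a lower, an overlapping and a higher CL1-5 group, while in all ITGB1 panels every CL1-5 array lies under every CL1-0 array.

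Among the other integrin subunits, 7 of 16 tested genes were higher and 3 lower in CL1-5, against 23.3% and 28.3% of all genes, with a median log2 fold change of 0.09 beside -0.03 over all genes tested. The laminin and collagen receptor subunits ITGA3 (3.55, SE 0.23), ITGA2 (2.77, SE 0.14) and ITGA6 (1.599, SE 0.13) rose. ITGA2 gave 4.47 with the median of its probe sets, and without any 1 CL1-0 array it was represented by a probe set that was dim in CL1-0. The collagen receptor subunit ITGA1 was at least 2.26-fold higher. ITGB1, ITGA2B and the muscle laminin receptor subunit ITGA7 (-0.60, SE 0.10) were lower, a count of 3 that became 5 with the replicate block. ITGA7 was named after its value was seen. The count of higher genes was 4 without CL1-5 repeat 1 or 2, and 5 in both cases when the filter asked for 2 arrays.

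Ligands changed in both directions and by large amounts. Of 14 tested genes 8 were higher and 4 lower, against 23.3% and 28.3% of all genes tested, with a median of 0.36. Fibronectin itself, FN1, rose from 558 ± 11.0 to 2353 ± 229 units (SD), a log2 fold change of 2.06 (SE 0.09, limma adjusted p = 1.4e-07). Osteopontin, SPP1, a ligand of alpha v, alpha 4 and alpha 9 receptors, fell from 14771 ± 845 to 90.4 ± 21.6 units (-7.27, SE 0.15; -4.52 with the median of its probe sets), and periostin, POSTN, was at least 41.2-fold lower. The matricellular protein CCN2 (-3.51, SE 0.09) and the fibrinogen gamma chain FGG (-3.91, SE 0.13) fell too. Among the genes that rose were TGFBI, a matrix protein that binds integrins (3.51, SE 0.17), and tenascin C, TNC (3.40, SE 0.13), both named after their values were seen. VTN, the gene of vitronectin, is read only by probe sets that also name SEBOX and has no value here, and VCAM1 did not pass the filter. The count of higher ligands was 5 without CL1-5 repeat 1 and 3 without CL1-5 repeat 2 (7 and 5 when the filter asked for 2 arrays).

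The genes around latent TGF-beta, which alpha v integrins activate, were 4 higher and 0 lower of 7, against 23.3% and 28.3% of all genes tested, with a median of 0.62. The membrane protease MMP14 rose from 73.8 ± 9.96 to 1070 ± 408 units (SD; 3.66, SE 0.27), and the latent TGF-beta binding proteins LTBP3 (0.91, SE 0.11; 0.39 with the median of its probe sets) and LTBP1 (0.74, SE 0.13) rose. TGFB1 passed narrowly (0.62, SE 0.21, limma adjusted p = 0.037), with overlapping lines, and it did not pass in 5 alternatives. Without CL1-0 repeat 1 or 2 it was 0.50 and 0.65 (limma adjusted p = 0.13 and 0.082), without CL1-5 repeat 2 or 3 it was 0.63 and 0.39 (0.089 and 0.084), and with the median of its probe sets it was 0.23 (0.14). The remaining 3, the presenting proteins LRRC32 and NRROS and the ligand TGFB3, did not pass, with values of -0.07, -0.14 and -0.20, and were named after these were seen.

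Genes that bind integrin tails or link them to actin were 12 higher and 0 lower of 19, against 23.3% and 28.3% of all genes tested, with a median of 0.64. The actopaxin PARVA, with only 1 CL1-0 array above the percentile (2.48, SE 0.18; 1.26 with the median of its probe sets), the actin crosslinker ACTN4 (1.98, SE 0.15), the adaptor paxillin, PXN (1.85, SE 0.13), and vinculin, VCL (1.52, SE 0.09), rose. VCL went from 551 ± 9.38 to 1603 ± 156 units (SD). The kindlin FERMT2 read 1201 ± 113 and 1250 ± 101 units and did not pass (0.06, adjusted p = 0.65). Of the other kindlins, FERMT1 was higher (1.21, SE 0.09, limma adjusted p = 5.7e-06) and FERMT3 did not pass (0.21, adjusted p = 0.32). Both were named after their values were seen, and alternatives are not given for them. Talin, TLN1, the main activator of integrins, varied widely between arrays, at 299 ± 98.0 and 233 ± 125 units, and did not pass (-0.43, SE 0.34, adjusted p = 0.33). Paired by repeat number, with the replicate block, TLN1 passed as lower (adjusted p = 0.0024) and the list held 2 lower genes. TLN1 also passed as lower without CL1-5 repeat 3 (-0.83, limma adjusted p = 0.015), with array weights (-0.45, 0.028), with the median of its probe sets (-0.46, 0.0031) and with repeats 1 and 2 alone (-0.58, 0.0014).

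Of 17 tested genes of focal adhesion signalling 5 were higher and 2 lower, beside 23.3% and 28.3% of all genes tested, with a median of 0.13. The higher count was 7 with the replicate block and 7 with the median of probe sets. Caveolin, CAV1, which takes part in integrin signalling and uptake, rose from 723 ± 68.9 to 5611 ± 145 units (SD; 2.95, SE 0.08), the Arf regulator ASAP1 by 0.97 (SE 0.12), the GTPase CDC42 by 0.86 (SE 0.17) and the kinase PTK2B by 0.85 (SE 0.16). The CDC42 call was lost with the median of its probe sets (0.20, adjusted p = 0.24). The focal adhesion kinase gene PTK2 read 877 ± 23.3 and 796 ± 17.5 units and did not pass (-0.14, adjusted p = 0.14), but passed as lower with the replicate block (adjusted p = 0.047), where the list held 4 lower genes, and as higher with the median of its probe sets (0.81). The lower count was 1 when any 1 array was left out among CL1-0 repeats 1, 2 and 3 and CL1-5 repeats 1 and 2.

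Uptake and recycling genes were 4 higher and 3 lower of 14, near the shares of 23.3% and 28.3% over all genes tested, with a median of 0.02. The clathrin adaptor DAB2, which binds beta tails, rose from 36.3 ± 8.78 to 238 ± 28.9 units (SD; 2.52, SE 0.17), and the GTPase ARF6 (1.83, SE 0.13; 0.90 with the median of its probe sets) and the recycling ATPase EHD1 (1.30, SE 0.14) rose. CLIC3, linked to recycling of alpha 5 beta 1, was at least 1.36-fold lower. The lower count was 5 with the replicate block and 1 without CL1-0 repeat 2.

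**Figure D4:**
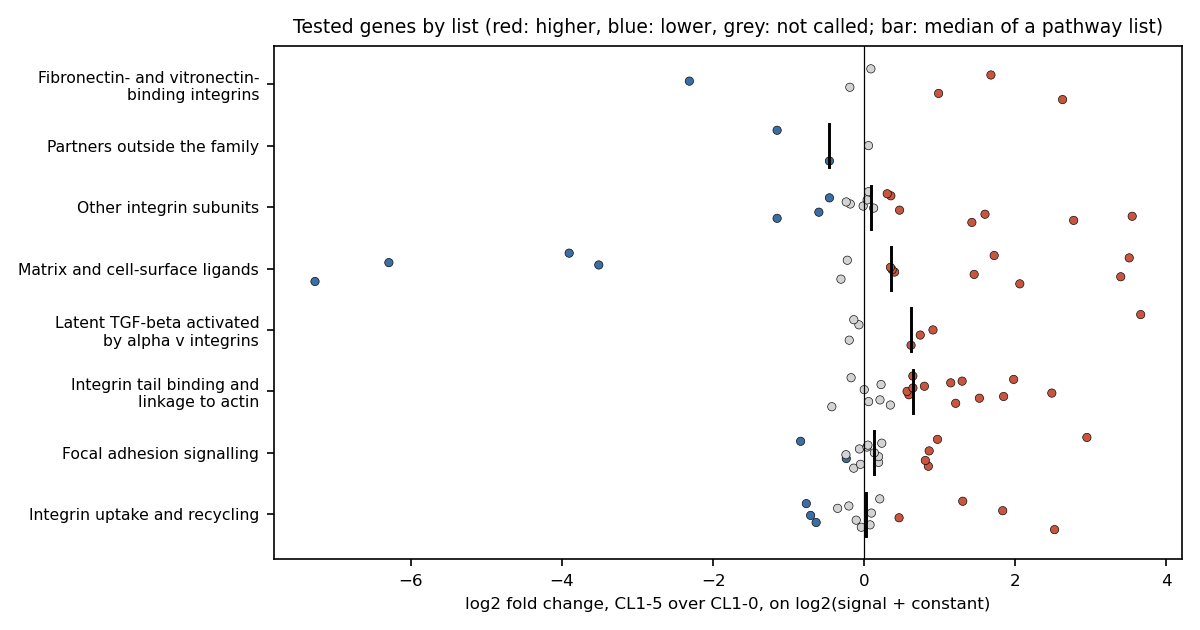
Log2 fold change (CL1-5 relative to CL1-0, on the log2 scale after the constant was added) for each tested gene of the family and of 7 lists (red: higher, blue: lower, grey: not called), with the median of each list as a bar. The list that links tails to actin has 12 of 19 genes higher and 0 lower, while the ligands, each by the probe set that represents it, reach from -7.27 to 3.51.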

How the data were processed

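Total RNA of CL1-0 and CL1-5 was hybridised to 6 one-colour arrays. The authors deposited 1 linear intensity per probe set and array, already brought to a common scale. Per the submitters' processing notes MAS5 was used. Neither its version nor what followed it is given in the sources used here. Genes were named through the platform annotation, updated by gene identifier to RefSeq (GRCh38.p14): 41091 of 54675 probe sets had 1 symbol, control probe sets left out, and 41037 matched. Tests used log2(signal + 6.85), where 6.85 is the 10th percentile over all arrays. A probe set was kept above the 40th percentile of its array (19.5 to 20.3 signal units) on at least 3 of 6 arrays. The fits were made in R 4.3.3 with limma 3.58.1 (lmFit, eBayes with a prior variance trend), over 14828 genes and over 28152 probe sets; p-values were adjusted by Benjamini-Hochberg within each fit, and a call needs an adjusted p under 0.05. In the gene fit a gene was represented by the probe set of highest mean log2 value, passing over cross-hybridising probe sets (suffix x) if it had others. The limma fit over genes was tested on simulated data, but the filter, the choice of probe set, the bounds and the permutation test were not.

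The family members and all lists were chosen with earlier results of these data known. Named genes were every family member, the partner subunits, up to 4 called genes of largest change in each list, and FN1, VTN, TLN1, FERMT2, PTK2 and TGFB1, with the 3 genes of closest pattern to the members of largest rise and fall, of which those for ITGA4 are left out because ITGA4 was not above the filter percentile in CL1-0. Repeat numbers came from the sample titles. After each line's mean was subtracted, arrays with the same number correlated at 0.475, 0.280 and 0.649 (repeats 1, 2 and 3), so repeat numbers count as pairs here. The fits reported have no block, and the blocked value stands beside a result where it changed the call of a named gene or moved a count by over 1.5 times.

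Alternatives were the constant, the filter, scaling, the prior trend, weighting of arrays, median of probe sets, the replicate block, a stricter threshold and leaving out each array. Added after the data were seen were left-out-array fits that ask for only 2 arrays in the filter and a fit of repeats 1 and 2 alone.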

Additional observations from a re-analysis of the deposited data

How the results depend on the processing

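ITGA5 and ITGB3 as higher and ITGAV as lower kept direction and call in every alternative run. Where a filter was used, ITGA4 was tested only if CL1-5 carried it through, so its call there was fixed by the filter. It fails the filter on 3 arrays when a CL1-5 array is left out. With no filter its probe sets were called as higher too, but they were dim in CL1-0, so only the bound holds. Leaving out 1 array gave 2 to 3 higher genes and 1 lower gene of the family, and 4 to 11 higher (10 to 12 with the filter on 2 arrays) and 2 lower probe sets. With array weights, which called 69.4% of all genes, 2 family genes were lower, and with no filter 5 family probe sets. With the replicate block 3 family genes were higher and 1 lower, and 62.7% of all genes were called. Beyond the counts below, the block moved higher signalling genes to 7, higher tail-binding genes to 13 and lower ligands to 5, and of the named genes it changed the calls of TLN1 and PTK2 only.

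Without 1 array, the ranges were 3 to 8 for higher ligands, 4 to 6 for higher and 3 to 4 for lower other integrins, 0 to 1 for lower tail-binding genes, 1 to 3 for lower signalling genes and 1 to 4 for lower recycling genes. Lower other integrins numbered 5 with array weights and with the block, and higher ones 4 with the filter at the 60th percentile. Lower signalling genes numbered 4 with the block, 1 with the median of probe sets and 1 at a threshold of 0.01. Lower tail-binding genes numbered 2 with array weights or the block and 1 with the median of probe sets or repeats 1 and 2 alone. Lower recycling genes numbered 5 with array weights, the block, or repeats 1 and 2 alone, and lower latent TGF-beta genes 2 with array weights. PTK2 turned to 0.81 with the median of its probe sets; the cause was not tested. The remaining counts stayed within 1.5 times. Signal over background limits ITGA8, ITGA9 and ITGB8.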
